A study of Mus musculus with 30 samples.

Results

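The miR-15/16 family is a group of small regulatory RNAs that share a seed, the bases 2 to 8 by which a miRNA pairs with its target mRNAs. Its members here are 6 of 1908 mature mouse miRNAs on miRNA arrays (mmu-miR-15a-5p, mmu-miR-15b-5p, mmu-miR-16-5p, mmu-miR-195a-5p, mmu-miR-322-5p and mmu-miR-497a-5p, written below without mmu for mouse) and the 7 miRNA genes that encode them, of 20842 genes on mRNA arrays, among which 321 were miRNA genes. The members were chosen by name. RNA came from mouse embryos of 19 to 21 somite pairs (embryonic day 9.5). The dissected tissues were the outflow tract and right ventricle together (OFT-RV) and the anterior second heart field (aSHF), the progenitor tissue that adds cells to that end of the heart tube. Mutant embryos were Mef2c-AHF-Cre/+; Dgcr8 f/f, and the controls that the labels call wild-type were Dgcr8 f/+, so they carried 1 floxed allele and no Cre. The Cre is driven by an enhancer of Mef2c that works in the anterior heart field and in the cells that come from it, so other cells of the dissected tissue keep Dgcr8. Each array held tissue of one genotype pooled over at least 5 litters. There were 4 mRNA arrays in each of the 4 groups, 4 miRNA arrays in each aSHF group and 3 in each OFT-RV group, 30 arrays in all. The labels call the arrays of a group biological replicates, but do not state whether the array types or tissues shared pools, and the small number of arrays limits the precision.

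A miRNA gene is first copied into a long primary transcript. Drosha and its RNA-binding partner Dgcr8 cut a hairpin out of it in the nucleus, Dicer cuts the hairpin in the cytoplasm, and 1 of its arms guides an Argonaute protein to target mRNAs. The miR-15/16 family is best known as a brake on the cell cycle: its established targets include D-type and E-type cyclins, their kinases and Bcl2, an inhibitor of apoptosis, and in the postnatal mouse heart its members help cardiomyocytes to leave the cell cycle. In the embryo, miR-322 and its cluster neighbour miR-503 are known from early heart progenitors.

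The mature sequences are shown because the shared seed defines the family and the bases behind it set the members apart. They are RefSeq sequences on the build GRCm38.p6, written 5′ to 3′ with the seed in capitals.
miR-322-5p: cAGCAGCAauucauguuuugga
miR-15a-5p: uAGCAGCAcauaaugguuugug
miR-15b-5p: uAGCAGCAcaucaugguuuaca
miR-16-5p: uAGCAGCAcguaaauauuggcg
miR-195a-5p: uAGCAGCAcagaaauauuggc
miR-497a-5p: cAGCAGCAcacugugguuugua
All 6 have the seed AGCAGCA. Compared base by base from the 5′ end, miR-16-5p and miR-195a-5p were identical at 19 of 21 bases and miR-15a-5p and miR-15b-5p at 18 of 22, whereas miR-322-5p and miR-16-5p were identical at 12 of 22. The closest member to miR-322-5p was miR-15b-5p, with 16 of 22 bases identical.

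The family lies in 4 clusters of hairpin genes. Mir322 encodes miR-322-5p at chrX:53054306-53054327 on the minus strand, within the span of the long noncoding RNA gene C430049B03Rik. Mir15a (miR-15a-5p at chr14:61632075-61632096, minus strand) and Mir16-1 lie within the span of Dleu2, another long noncoding RNA gene. Mir15b (miR-15b-5p at chr3:69009775-69009796, plus strand) and Mir16-2 lie within Smc4, which encodes a condensin subunit. Mir195a and Mir497 (miR-195a-5p at chr11:70235062-70235082 and miR-497a-5p at chr11:70234730-70234751, both on the plus strand) lie within no other gene of the annotation used. Mir497ahg, listed here as their host transcript, was not among the genes measured. The mature miR-16-5p is made from both Mir16-1 (chr14:61631936-61631957, minus strand) and Mir16-2 (chr3:69009918-69009939, plus strand), and its probe set cannot tell them apart.

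Dgcr8, the targeted gene, had log2 values of 7.63, 7.77, 7.73 and 7.65 in the OFT-RV mutant arrays, against 8.22, 8.06, 7.98 and 8.16 in the OFT-RV wild-type arrays. The groups did not overlap, and the level in mutants dropped by 0.41 log2 units (SE 0.06, adjusted p = 0.00753 by limma over all genes, exact two-sided permutation p = 0.0286, the smallest that 4 arrays against 4 allow). Adjusted over all probe sets, the OFT-RV change no longer passed (adjusted p = 0.057). In aSHF it had 10.18, 10.27, 10.17 and 10.25 in mutant arrays, against 10.27, 10.36, 10.33 and 10.41 in wild-type arrays. The aSHF groups overlapped, and the change of -0.12 (SE 0.05) did not pass (adjusted p = 0.978, exact permutation p = 0.0571). Whether this probe set covers the floxed part of Dgcr8 is not known here. Drosha, the export factor gene Xpo5, Dicer1 and the Argonaute gene Ago2 did not pass in either tissue, with changes of -0.04 to 0.06 in OFT-RV and -0.08 to 0.06 in aSHF.

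The tissues carried the markers of their labels, and no marker list moved past the test with the genotype. On OFT-RV arrays the mean of 8 myocardial genes was 12.62 to 12.74 in mutants and 12.67 to 12.70 in wild-type, with all 8 above the median of all probe sets, and on aSHF arrays the mean of 6 progenitor genes was 9.83 to 9.84 in mutants and 9.68 to 9.82 in wild-type, with 6 of 6 above that median. Red cell genes were the list that leaned one way in both tissues: 6 of 6 were higher in mutants, against 42.9% of all genes in OFT-RV and 57.9% in aSHF. Their array means in OFT-RV were 9.09 to 9.46 in mutants and 9.03 to 9.27 in wild-type. In aSHF they were 9.86 to 10.14 in mutants and 9.56 to 10.01 in wild-type. Their part in the results on the family was not tested. The red cell miRNAs miR-451a and miR-144-3p were at 0.65 to 1.18 on the OFT-RV arrays of both genotypes and at 0.60 to 1.73 on the aSHF arrays. Neither list was confined to its own tissue. On the aSHF arrays 6 of 8 myocardial genes were above the median, with array means of 9.18 to 9.74 in mutants and 9.24 to 9.68 in wild-type. On the OFT-RV arrays 4 of 6 progenitor genes were above it in both genotypes. The aSHF arrays of both genotypes also held endodermal, endothelial and neural crest genes, all above the median of all probe sets. Endothelial, endodermal and neural crest genes, with 6, 5 and 5 members, had median changes of -0.06, -0.105 and -0.04 in OFT-RV and of -0.02, -0.01 and -0.01 in aSHF, and none passed. All 6 endothelial genes were lower in aSHF mutants, and all 5 endodermal genes were lower in OFT-RV mutants.

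On the mRNA arrays, 3 of the 7 family genes rose in OFT-RV mutants and 2 of 7 rose in aSHF mutants, and none fell. Passing means an adjusted p below 0.05 by limma. Among all genes tested, 0.432% passed as higher in OFT-RV and 0.178% in aSHF. The share among the 321 miRNA genes alone is not given here, and miRNA genes outside the family, such as Mir30b, rose in both tissues too. Mir322 rose in both tissues, as did Mir16-1, while Mir15a rose in OFT-RV. Whether a probe set named for a miRNA gene reads its primary transcript, its hairpin or both is not stated. In these bulk samples a difference in the number of cells of a type and a difference in RNA per cell cannot be told apart.

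**Figure D1:**
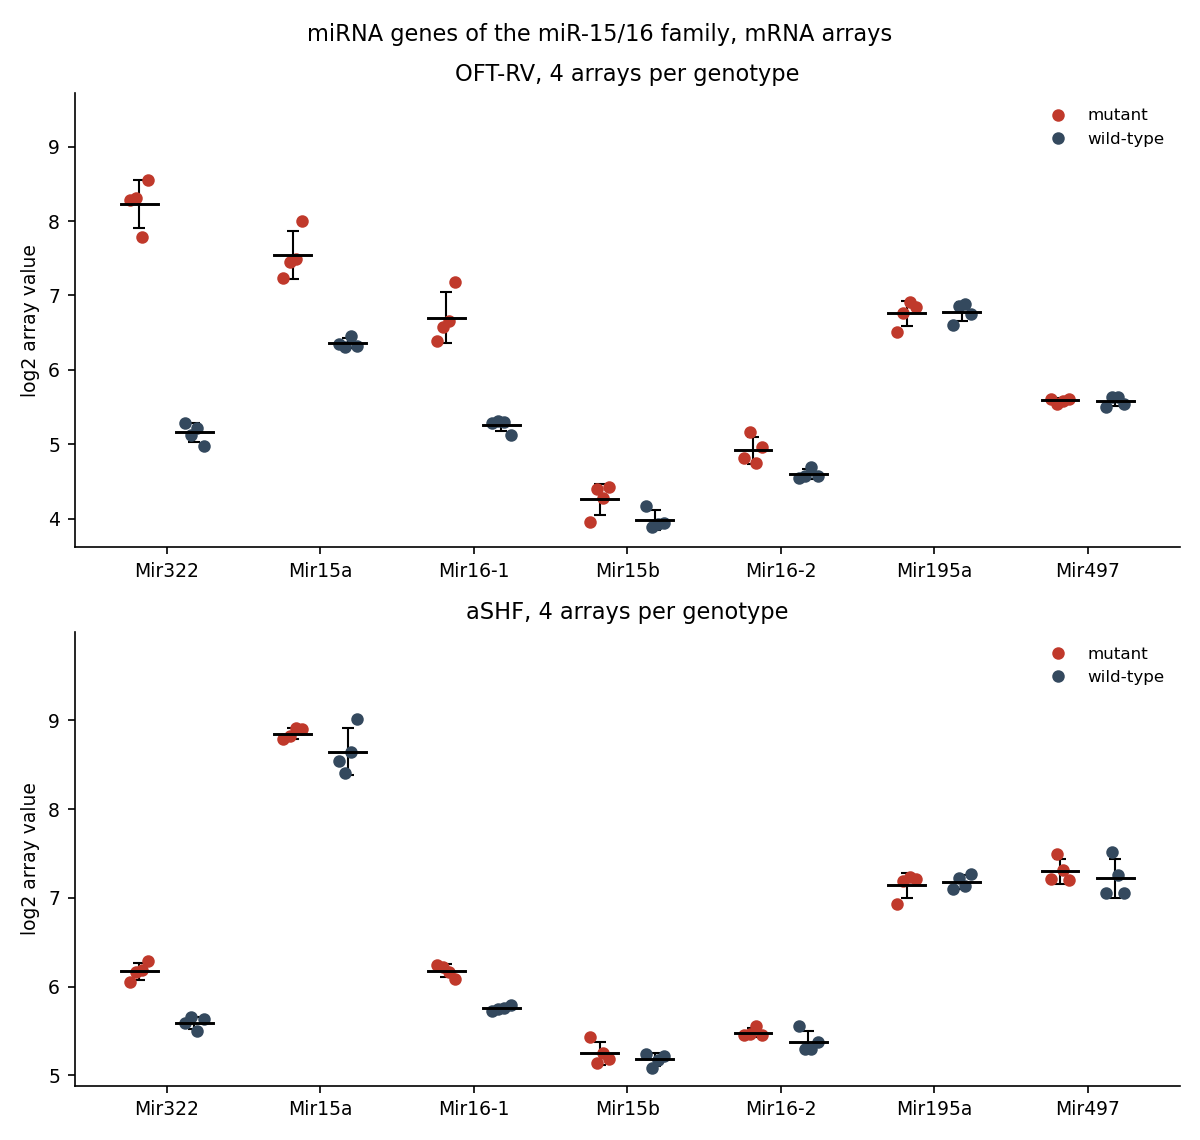
Log2 values of the 7 miRNA genes of the family on the mRNA arrays, in OFT-RV above and aSHF below. Points are arrays (red mutant, dark blue wild-type), and the bars give the mean ± SD of 4 arrays. The 4 Mir322 mutant points in OFT-RV lie between 7.78 and 8.55, all above the wild-type points.

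Mir322 showed the largest rise of the family in OFT-RV. Its log2 values were 8.29, 8.31, 7.78 and 8.55 in mutant arrays, against 5.28, 5.13, 5.22 and 4.98 in wild-type arrays, with means of 8.23 ± 0.32 and 5.16 ± 0.13 (SD, n = 4 each). The lowest mutant array lay far above the highest wild-type array. The rise was 3.08 log2 units (SE 0.13, adjusted p = 6.09e-08), an 8.44-fold change with a 95% confidence interval of 6.91 to 10.3. In aSHF the values were 6.05, 6.16, 6.19 and 6.29 in mutant arrays, against 5.59, 5.66, 5.50 and 5.64 in wild-type arrays. These groups did not overlap either, and the rise was 0.58 (SE 0.06, adjusted p = 0.00297), a 1.49-fold change (1.36 to 1.63). The rise in OFT-RV exceeded that in aSHF by 2.50 (SE 0.16, adjusted p = 2.03e-08 for the difference). The arrays of the tissues were on scales of their own, so levels were not compared across tissues and a difference between their changes takes a log2 unit to mean the same in both.

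The next genes on the X chromosome rose too. Mir503 and Mir351 start 295 and 996 bases from it, in the span of the same long noncoding RNA gene. Their mature miRNAs are shown because neither has the seed of the family, although miR-503 is often counted with it.
miR-503-5p: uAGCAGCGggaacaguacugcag
miR-351-5p: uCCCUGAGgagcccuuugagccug
Mir503 had 11.12, 11.13, 10.88 and 11.35 in OFT-RV mutant arrays, against 8.45, 8.37, 8.50 and 8.44 in wild-type arrays, a rise of 2.68 (SE 0.08, adjusted p = 3.68e-09). Mir351 had 11.56, 11.40, 11.36 and 11.81, against 8.50, 8.57, 8.84 and 8.98 in wild-type arrays, a rise of 2.81 (SE 0.12, adjusted p = 5.07e-08). The genotypes did not overlap for either gene, and replicate 4 was the highest mutant array for both, as it was for Mir322. In aSHF Mir503 rose by 0.77 (SE 0.09, adjusted p = 0.00599) and Mir351 by 1.13 (SE 0.10, adjusted p = 0.000896). The call of Mir503 in aSHF ended without wild-type replicate 4 (adjusted p = 0.0592). Both rises were larger in OFT-RV than in aSHF, by 1.91 (SE 0.13, adjusted p = 5.07e-08) for Mir503 and by 1.68 (SE 0.17, adjusted p = 1.25e-05) for Mir351.

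Farther along the chromosome the genes of the same miRNA cluster did not pass, so that 2 of the 6 cluster genes measured outside the family passed in each tissue, against 0.432% of all genes as higher in OFT-RV and 0.178% in aSHF. These farther genes lay low on the arrays: the group means of Mir450b, Mir450-1 and Mir450-2 were at percentiles 0.754 to 14.3 of all probe sets and those of Mir542 at 17.4 to 22.7. Those of Mir503 and Mir351 were at percentiles 43.3 to 82.6 in wild-type and 55.1 to 96.9 in mutants. Mir322, which rose, was at percentile 17.8 in aSHF wild-type and 31.0 in OFT-RV wild-type. In mutants it was at 27.6 in aSHF and 77.4 in OFT-RV. The part of the low levels in this contrast was not tested. Mir542, 4862 bases from Mir322 and outside the span of the long noncoding RNA, had a change of 0.07 (SE 0.05, adjusted p = 0.965) in OFT-RV and 0.13 (SE 0.05, adjusted p = 0.978) in aSHF. Mir450-2, Mir450-1 and Mir450b, between 5982 and 6271 bases away, had changes of 0.30 (adjusted p = 0.0879), 0.13 (0.679) and 0.22 (0.0869) in OFT-RV and of 0.03, 0.02 and -0.01 in aSHF. The OFT-RV arrays of the genotypes did not overlap for these 3 genes, each higher in mutants (1.81% of all genes), and Mir450-2, for example, had 4.34 to 4.51 in mutant arrays and 4.04 to 4.24 in wild-type arrays. Mir450-2 passed in OFT-RV with array weights (adjusted p = 0.0475), in a fit of 4 groups (0.0042) and with a trended prior (0.0222), and Mir450b in the fit of 4 groups (0.013) and with a trended prior (0.00754). The transcript C430049B03Rik itself was not analysed here.

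**Figure D2:**
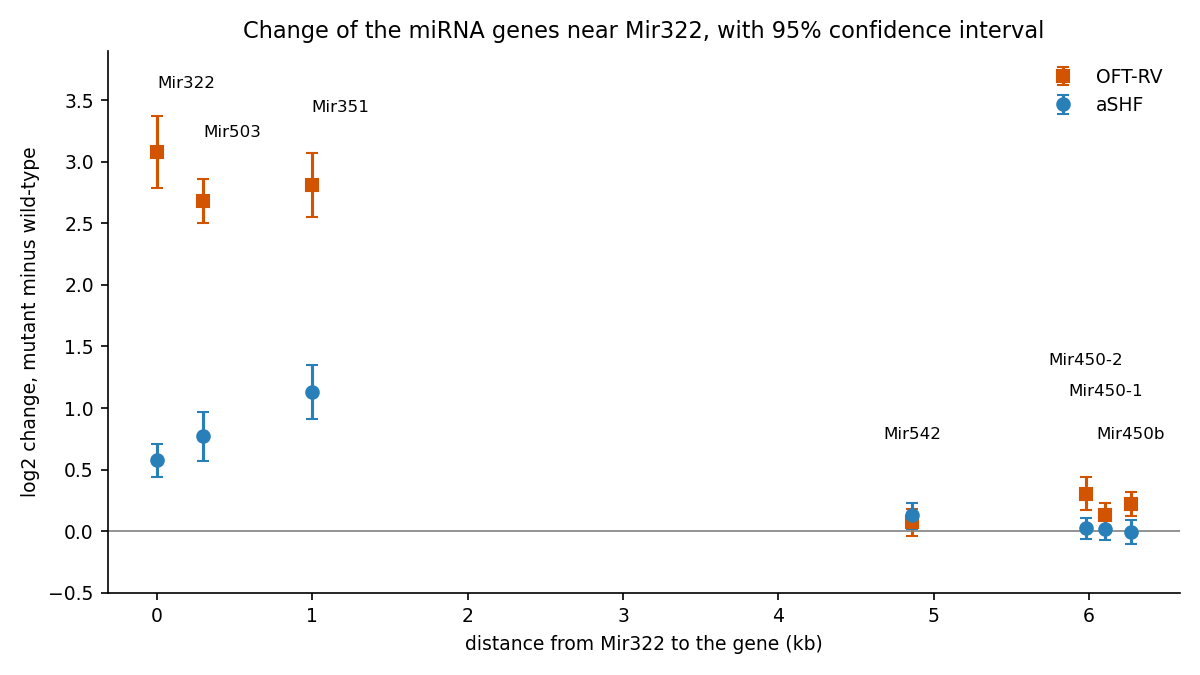
Log2 change (mutant minus wild-type) of the 7 miRNA genes of the X-chromosome cluster against their distance from Mir322 in kb, in OFT-RV (orange squares) and aSHF (blue circles). Bars are 95% confidence intervals, 4 arrays per genotype. The 3 genes within 1 kb lie at 2.68 to 3.08 in OFT-RV and 0.58 to 1.13 in aSHF, and the 4 farther genes lie at 0.30 or below.

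The second pair of family genes, Mir15a and Mir16-1 on chromosome 14, rose in OFT-RV. Mir16-1 had 6.39, 6.57, 6.66 and 7.18 in mutant arrays, against 5.29, 5.31, 5.30 and 5.13 in wild-type arrays, a rise of 1.44 (SE 0.13, adjusted p = 0.000119) or 2.72-fold (2.22 to 3.32). Mir15a had 7.24, 7.45, 7.49 and 8.0 in mutant arrays, against 6.35, 6.31, 6.45 and 6.32 in wild-type arrays, a rise of 1.19 (SE 0.13, adjusted p = 0.000404) or 2.28-fold (1.88 to 2.76). For both genes replicate 4 was again the highest mutant array, and the genotypes did not overlap. In aSHF Mir16-1 had 6.24, 6.22, 6.16 and 6.08 in mutant arrays, against 5.73, 5.75, 5.76 and 5.79 in wild-type arrays, and it rose by 0.42 (SE 0.05, adjusted p = 0.00436). This call was absent in a fit that took the spread over both tissues (adjusted p = 0.472). Mir15a had 8.79, 8.82, 8.91 and 8.90 in aSHF mutant arrays, against 8.54, 8.41, 8.64 and 9.02 in wild-type arrays, which overlapped (change 0.20, SE 0.11, adjusted p = 0.978).

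The changes on chromosome 14 were larger in OFT-RV than in aSHF, by 1.02 for Mir16-1 (SE 0.16, adjusted p = 0.00284) and by 0.99 for Mir15a (SE 0.18, adjusted p = 0.0221). With Mir322, 3 of 7 family genes thus differed between the tissues, where 0.202% of all genes differed in this direction. The share among miRNA genes alone is not given here. The difference of Mir15a no longer passed without any one of aSHF mutant replicate 1, aSHF wild-type replicate 3, OFT-RV wild-type replicate 2 or OFT-RV wild-type replicate 4 (adjusted p of 0.054 to 0.06). Dleu2, whose span holds both genes, did not pass: it had 3.99, 3.97, 3.95 and 3.92 in OFT-RV mutant arrays, against 3.89, 3.73, 3.79 and 3.74 in wild-type arrays (change 0.17, SE 0.05, adjusted p = 0.397), and had a change of -0.01 in aSHF (adjusted p = 0.991). Its group means were at percentiles 1.59 to 3.43 of all probe sets, near the floor of the arrays, so that little can be read from it.

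The remaining 4 family genes did not pass in either tissue. Mir16-2, from chromosome 3, had 4.81, 5.16, 4.75 and 4.96 in OFT-RV mutant arrays, against 4.55, 4.57, 4.69 and 4.57 in wild-type arrays (change 0.32, SE 0.08, adjusted p = 0.259). Its neighbour Mir15b had 3.96, 4.40, 4.27 and 4.43, against 4.17, 3.88, 3.92 and 3.94 in wild-type arrays (change 0.29, SE 0.10, adjusted p = 0.605). The genotypes did not overlap for Mir16-2 and overlapped for Mir15b. Both genes lay low on the arrays of both tissues. Their group means were at percentiles 14.3 to 25.9 of all probe sets for Mir16-2 and 3.93 to 11.8 for Mir15b. In aSHF the changes were 0.10 for Mir16-2 and 0.07 for Mir15b (adjusted p = 0.978 for both). Their host Smc4 had changes of 0.06 (SE 0.07, adjusted p = 0.984) in OFT-RV and -0.07 (SE 0.09, adjusted p = 0.978) in aSHF. Mir195a and Mir497, from chromosome 11, had changes of -0.02 (95% confidence interval -0.21 to 0.18) and 0.01 (-0.10 to 0.12) in OFT-RV and of -0.04 (-0.19 to 0.12) and 0.08 (-0.15 to 0.31) in aSHF. Over the 7 family genes, the genotypes did not overlap for 4 in OFT-RV and 2 in aSHF, all higher in mutants, against 1.81% and 1.07% of all genes.

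The genes whose pattern over the 16 mRNA arrays was most like that of Mir322 were other miRNA genes. Likeness was the root mean square difference of log2 values after each tissue's mean was taken off, over 20835 genes outside the family. The nearest were Mir30b at 0.18, Mir503 at 0.19, Mir30a at 0.20, Mir1a-2 at 0.21 and Mir130a at 0.26, where Mir322 itself had a root mean square of 1.12 around its tissue means. Mir30b rose by 3.38 in OFT-RV and 0.78 in aSHF, Mir30a by 2.79 and 0.87, and Mir130a by 2.72 and 0.96. Mir1a-2, which encodes a miRNA of heart and skeletal muscle, rose by 2.83 in OFT-RV and did not pass in aSHF (0.11, adjusted p = 0.978). Its mature miRNA, miR-1a-3p, had 1.28 to 2.88 in OFT-RV mutant arrays and 2.41 to 4.27 in wild-type arrays (change -1.27, adjusted p = 0.526).

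On the miRNA arrays, none of the 6 mature family miRNAs passed in OFT-RV or in aSHF, where 0.367% and 0% of 1908 mature miRNAs passed by limma, nor in the difference between tissues (0.157% of all). At an unadjusted p under 0.05 there was 1 of 6 in OFT-RV, 0 of 6 in aSHF and 1 of 6 in the difference, against 9.54%, 5.97% and 6.03% of all mature miRNAs. Relative to wild-type arrays 5 of 6 were lower in OFT-RV mutants, with a median change of -0.235 against -0.0044 for all mature miRNAs. In aSHF 3 of 6 were lower, with a median of -0.0695 against -0.0091. Most mature miRNAs were dim. Those with a tissue mean above the 95th percentile of background probe sets had medians of -0.0324 in OFT-RV (493 miRNAs) and -0.0605 in aSHF (293). The aSHF median of the family lay close to the latter. The 5 lower in OFT-RV include miR-497a-5p, above background on no array, and miR-16-5p, at 0.0286 without mutant replicate 3. Only miR-16-5p and miR-15b-5p stood above background on every array. Background is here the 95th percentile of 95 background probe sets on the same array, 0.98 to 1.08 in OFT-RV and 2.66 to 2.91 in aSHF.

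**Figure D3:**
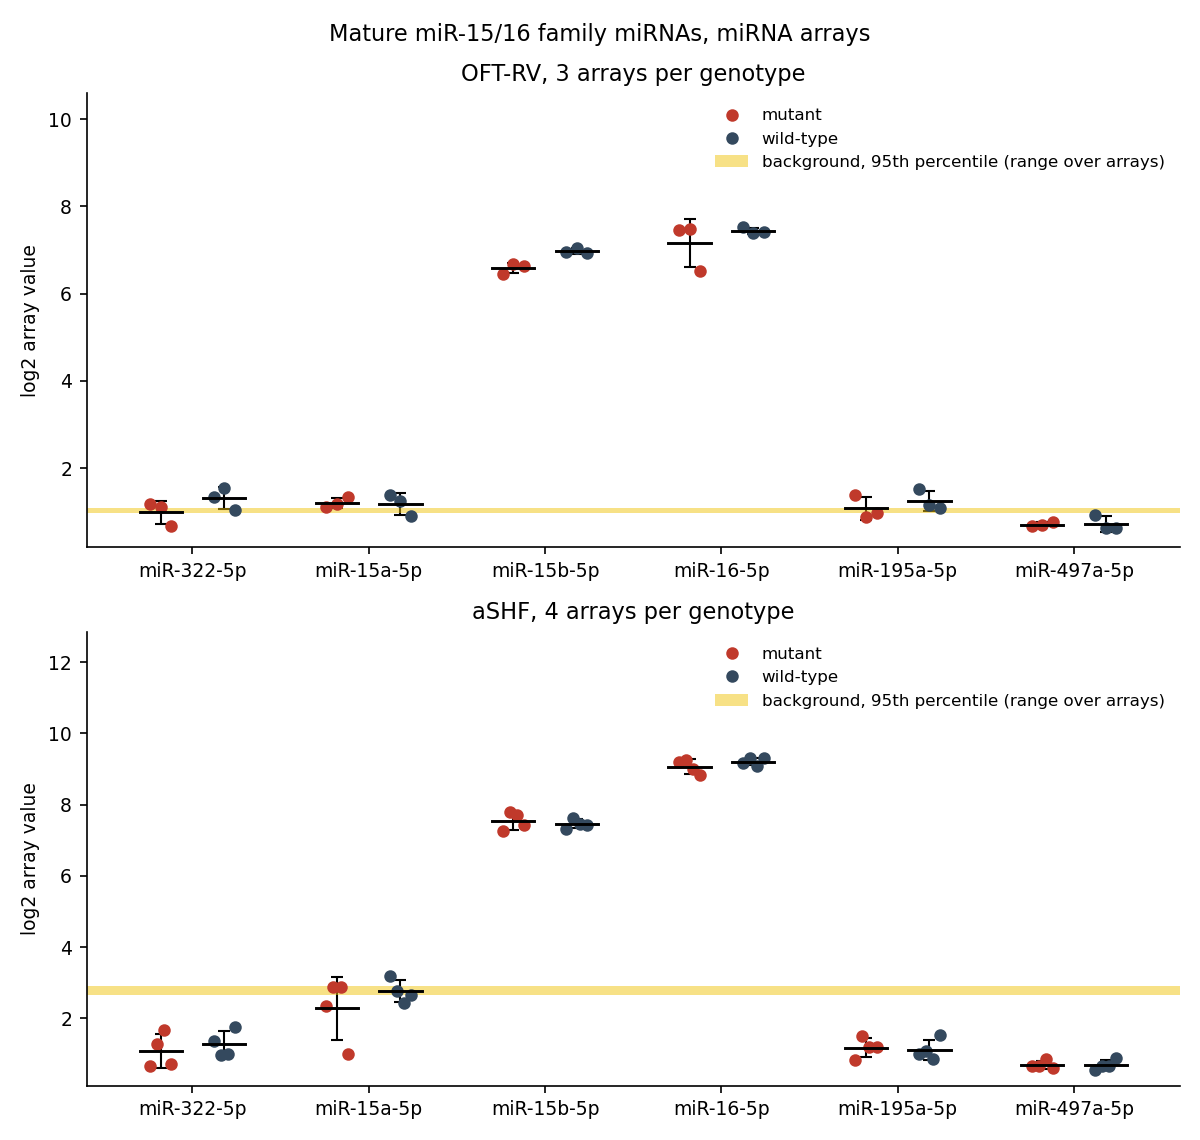
Log2 values of the 6 mature family miRNAs on the miRNA arrays, in OFT-RV above and aSHF below. Points are arrays (red mutant, dark blue wild-type), bars the mean ± SD, and the yellow band spans the arrays' 95th percentiles of background probe sets. miR-15b-5p and miR-16-5p lie above the band in both tissues, and the OFT-RV mutant points of miR-15b-5p (6.45 to 6.67) lie below its wild-type points (6.94 to 7.05).

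miR-15b-5p had 6.45, 6.67 and 6.64 in OFT-RV mutant arrays, against 6.95, 7.05 and 6.94 in wild-type arrays. It was the member whose genotypes did not overlap in OFT-RV, a separation with mutants lower that 7.08% of all mature miRNAs showed, and its change was -0.39 (SE 0.10, adjusted p = 0.189). The aSHF values were 7.25, 7.80, 7.70 and 7.43 in mutant arrays, against 7.31, 7.62, 7.47 and 7.43 in wild-type arrays, which overlapped (change 0.08, SE 0.13, adjusted p = 0.962). The changes in the tissues differed by -0.48 (SE 0.18, adjusted p = 0.569), which did not pass.

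miR-16-5p had 7.47, 7.48 and 6.53 in OFT-RV mutant arrays, against 7.53, 7.39 and 7.41 in wild-type arrays (change -0.29, 95% confidence interval -0.88 to 0.31, adjusted p = 0.813). The low mutant value was that of replicate 3, without which the change was 0.0286, and the other mutant arrays lay within the wild-type range. Replicate 3 was also the lowest OFT-RV mutant array for miR-322-5p, miR-322-3p, miR-503-5p and miR-351-5p. It was not the lowest for miR-15a-5p, miR-15b-5p, miR-195a-5p or miR-497a-5p. Its mean over all mature miRNAs was 1.2816, against 1.322 and 1.3136 for mutant replicates 1 and 2. In aSHF its values were 9.19, 9.25, 9.01 and 8.82 in mutant arrays, against 9.16, 9.30, 9.09 and 9.30 in wild-type arrays (change -0.15, -0.40 to 0.10, adjusted p = 0.934). Mir16-1, 1 of its 2 genes, was thus 1.44 higher in OFT-RV mutants on the mRNA arrays, while the interval for the mature miRNA ended at 0.31. The array types have scales of their own, and the difference between them was not tested.

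miR-322-5p was near background. It had 1.17, 1.12 and 0.68 in OFT-RV mutant arrays, against 1.34, 1.55 and 1.05 in wild-type arrays (change -0.33, SE 0.18, adjusted p = 0.663), and 5 of these 6 arrays were above background. In aSHF it had 0.67, 1.27, 1.68 and 0.73 in mutant arrays, against 1.37, 0.98, 1.0 and 1.75 in wild-type arrays (change -0.19, SE 0.25, adjusted p = 0.962), and 0 of 8 were above background. The guide strand's level was therefore at the limit of what this probe set measured. The arm opposite to it in the hairpin was above background on all 14 arrays and is shown for that reason.
miR-322-3p: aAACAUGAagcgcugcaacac
It had 5.30, 4.77 and 4.16 in OFT-RV mutant arrays, against 5.28, 5.02 and 5.53 in wild-type arrays (change -0.53, SE 0.28, adjusted p = 0.663). The aSHF values were 4.70, 4.26, 4.13 and 2.75 in mutant arrays, against 4.24, 4.40, 4.64 and 4.68 in wild-type arrays (change -0.53, SE 0.36, adjusted p = 0.931). With 1 replicate left out, the change lay between -0.81 and -0.24 in OFT-RV and between -0.78 and -0.13 in aSHF. The groups overlapped in both tissues, and the upper ends of the 95% confidence intervals were 0.13 in OFT-RV and 0.27 in aSHF, where Mir322 on the mRNA arrays had risen by 3.08 and 0.58.

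Of the cluster neighbours, miR-351-5p and miR-503-5p were measured more clearly. miR-351-5p had 8.48, 8.64 and 8.39 in OFT-RV mutant arrays, against 9.11, 9.02 and 9.02 in wild-type arrays (change -0.55, SE 0.10, adjusted p = 0.107). In aSHF its values were 7.70, 7.82, 7.86 and 7.84 in mutant arrays, against 8.10, 7.91, 8.05 and 7.93 in wild-type arrays (change -0.19, SE 0.08, adjusted p = 0.809). All mutant arrays lay below all wild-type arrays in both tissues, as for 7.08% of mature miRNAs in OFT-RV and 2.78% in aSHF, yet neither change passed. In the fit of 4 groups, which called more mature miRNAs in OFT-RV (38 against 7), miR-351-5p passed there (adjusted p = 0.00704). miR-503-5p had 5.54, 5.04 and 4.79 in OFT-RV mutant arrays, against 6.07, 5.51 and 5.46 in wild-type arrays (change -0.56, SE 0.24, adjusted p = 0.521), and a change of -0.22 (SE 0.14, adjusted p = 0.931) in aSHF. Of the 11 mature miRNAs of the neighbouring genes, 6 were lower in OFT-RV and 8 in aSHF, and none passed. Of all mature miRNAs, 48.4% were higher in OFT-RV and 47.3% in aSHF. Apart from miR-351-5p, miR-503-5p and miR-351-3p, these miRNAs had group means of 0.62 to 2.04, at or near background. Little can therefore be read from their directions.

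**Figure D4:**
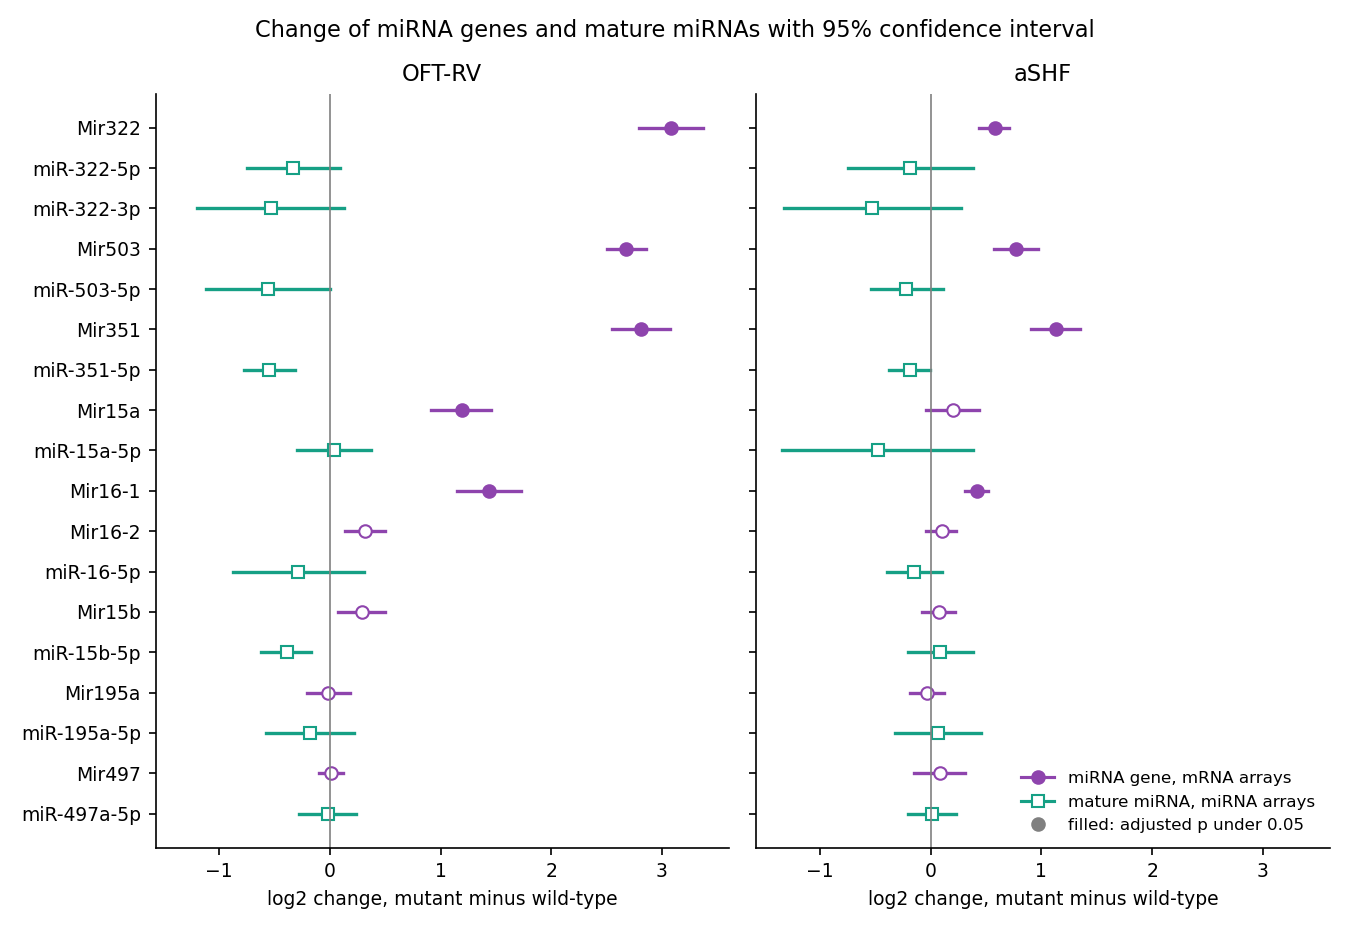
Log2 change (mutant minus wild-type) with 95% confidence interval for each miRNA gene (purple circles, mRNA arrays, 4 arrays per genotype) and its mature miRNA (green squares, miRNA arrays, 3 per genotype in OFT-RV and 4 in aSHF), OFT-RV left and aSHF right. Filled points passed at an adjusted p under 0.05. The genes Mir322, Mir503 and Mir351 lie at 2.68 to 3.08 in OFT-RV, while their mature miRNAs lie between -0.56 and -0.33.

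The other mature members were at or near background. miR-15a-5p had 1.12, 1.18 and 1.34 in OFT-RV mutant arrays, against 1.38, 1.26 and 0.90 in wild-type arrays (change 0.04, SE 0.14, adjusted p = 0.968), with 5 of 6 arrays above background. In aSHF it had 2.36, 2.87, 2.87 and 1.01, against 3.18, 2.77, 2.42 and 2.66 in wild-type arrays (change -0.48, SE 0.38, adjusted p = 0.934), with 2 of 8 arrays above background. Its gene Mir15a had risen by 1.19 in OFT-RV. miR-195a-5p had changes of -0.18 (SE 0.17, adjusted p = 0.833) in OFT-RV and 0.07 (SE 0.17, adjusted p = 0.966) in aSHF, with 4 of 6 and 0 of 8 arrays above background. miR-497a-5p lay between 0.55 and 0.93 on all 14 arrays, above background on none, and no change of it can be read from these arrays.

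Among the arms opposite to the family's guide strands, 4 of 7 were higher in OFT-RV mutants and 3 of 7 in aSHF mutants, and none passed. The one with the smallest p was miR-16-2-3p, which comes from Mir16-2 and so separates that gene from Mir16-1.
miR-16-2-3p: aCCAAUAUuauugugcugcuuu
It had 1.28, 1.24 and 1.59 in OFT-RV mutant arrays, against 0.54, 0.70 and 0.79 in wild-type arrays (change 0.70, SE 0.13, adjusted p = 0.107). The mutant arrays were above background and the wild-type arrays were not. The genotypes did not overlap, as for 5.87% of mature miRNAs with mutants higher. The aSHF values were 4.97, 3.94, 4.24 and 4.58 in mutant arrays, against 4.09, 3.58, 4.38 and 3.83 in wild-type arrays (change 0.46, SE 0.24, adjusted p = 0.845), with all 8 arrays above background. miR-16-1-3p, from Mir16-1, had changes of -0.28 in OFT-RV (SE 0.15, adjusted p = 0.663) and 0.06 in aSHF (SE 0.18, adjusted p = 0.968). The other arms (miR-15a-3p, miR-15b-3p, miR-195a-3p and miR-497a-3p) had changes of -0.02 to 0.22 in OFT-RV and -0.44 to 0.14 in aSHF.

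Probe sets for the hairpins and for other miRNAs with the same seed were nearly all at background. The 7 hairpin probe sets of the family had group means of 0.76 to 1.34, with 4 of 98 array values above background, and changes of -0.13 to 0.01 in OFT-RV and -0.15 to 0.09 in aSHF. Besides the family, 4 annotated mature miRNAs have the seed AGCAGCA: miR-195b, miR-6342, miR-6353 and miR-6419. None of them was above background on any array, and their changes were -0.10 to 0.08 in OFT-RV and -0.08 to 0.11 in aSHF. miR-497b, named for miR-497, was likewise above background on no array. The mature miRNAs outside the family most like miR-322-5p over the 14 arrays, of 280 above background, were miR-299a-3p at a root mean square difference of 0.22, miR-93-3p at 0.24, miR-191-5p and miR-1198-5p at 0.26 and miR-31-5p at 0.27. None of these passed in either tissue, and miR-322-5p itself varied by 0.34 around its tissue means. As miR-322-5p was above background on 0 of 8 aSHF arrays, little can be read from this ranking.

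Known targets of the family were followed on the mRNA arrays with 27 genes from textbook knowledge, a list that holds cell cycle genes, growth factor genes and their receptors. None of the 27 passed in either tissue. In OFT-RV 17 were higher and 10 lower in mutants, with a median change of 0.03 against -0.01 for all genes. An unadjusted p under 0.05 was found for 6 of 27 targets, each higher in mutants, against 5.83% of all genes in either direction. The list was chosen with earlier results of these data known, which limits what this share can show. In aSHF 9 were higher and 18 lower, with a median of -0.03 against 0.01 for all genes, and 0 of 27 had an unadjusted p under 0.05, against 2.66% of all genes.

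Cdk6, a kinase that works with the D-type cyclins, had 8.56, 8.64, 8.54 and 8.60 in mutant arrays, against 8.38, 8.39, 8.26 and 8.33 in wild-type arrays (change 0.25, SE 0.05, adjusted p = 0.0602). Ccnd1, which encodes cyclin D1, had 10.38, 10.38, 10.27 and 10.35, against 10.06, 10.15, 9.93 and 10.18 in wild-type arrays (change 0.26, SE 0.06, adjusted p = 0.15). The genotypes did not overlap for either gene, nor for Ccne1, Wee1 and Ccnd2, 5 of the 27 targets and each higher in mutants, against 1.81% of all genes, and Ccnd2 (cyclin D2) is named here after its values were seen. Cdk6 passed with array weights (adjusted p = 0.0344) and in the fit of 4 groups (0.00908), and Ccnd1 in the fit of 4 groups (0.0154) and with a trended prior (0.0447). In aSHF Cdk6 was at -0.02 (SE 0.05) and Ccnd1 at -0.03 (SE 0.04), with an adjusted p of 0.98 and 0.978. The changes of OFT-RV and aSHF differed by 0.27 for Cdk6 (SE 0.06, adjusted p = 0.229) and by 0.29 for Ccnd1 (SE 0.07, adjusted p = 0.284), which did not pass.

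Ccne1, which encodes cyclin E1, had a change of 0.14 (SE 0.05, adjusted p = 0.581) in OFT-RV and 0.03 (adjusted p = 0.978) in aSHF. Wee1, a kinase that holds back entry into mitosis, had 0.19 (SE 0.07, adjusted p = 0.679) and -0.05, and E2f3, a transcription factor of S phase, 0.27 (SE 0.10, adjusted p = 0.633) and -0.05. Bcl2, the apoptosis inhibitor and a classic target of miR-15a and miR-16 in human lymphocytes, was at 8.98, 8.88, 9.0 and 8.98 in OFT-RV mutant arrays, against 9.05, 8.95, 8.94 and 8.88 in wild-type arrays. The genotypes overlapped, with a change of 0.004 (SE 0.05) in OFT-RV and -0.08 (SE 0.05) in aSHF. The phosphatase gene Cdc25a had changes of -0.04 in OFT-RV and -0.07 in aSHF, the growth factor gene Fgf2 of -0.01 and -0.09, and the ubiquitin ligase gene Cul2 of 0.03 and -0.08, with none past the test.

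**Figure D5:**
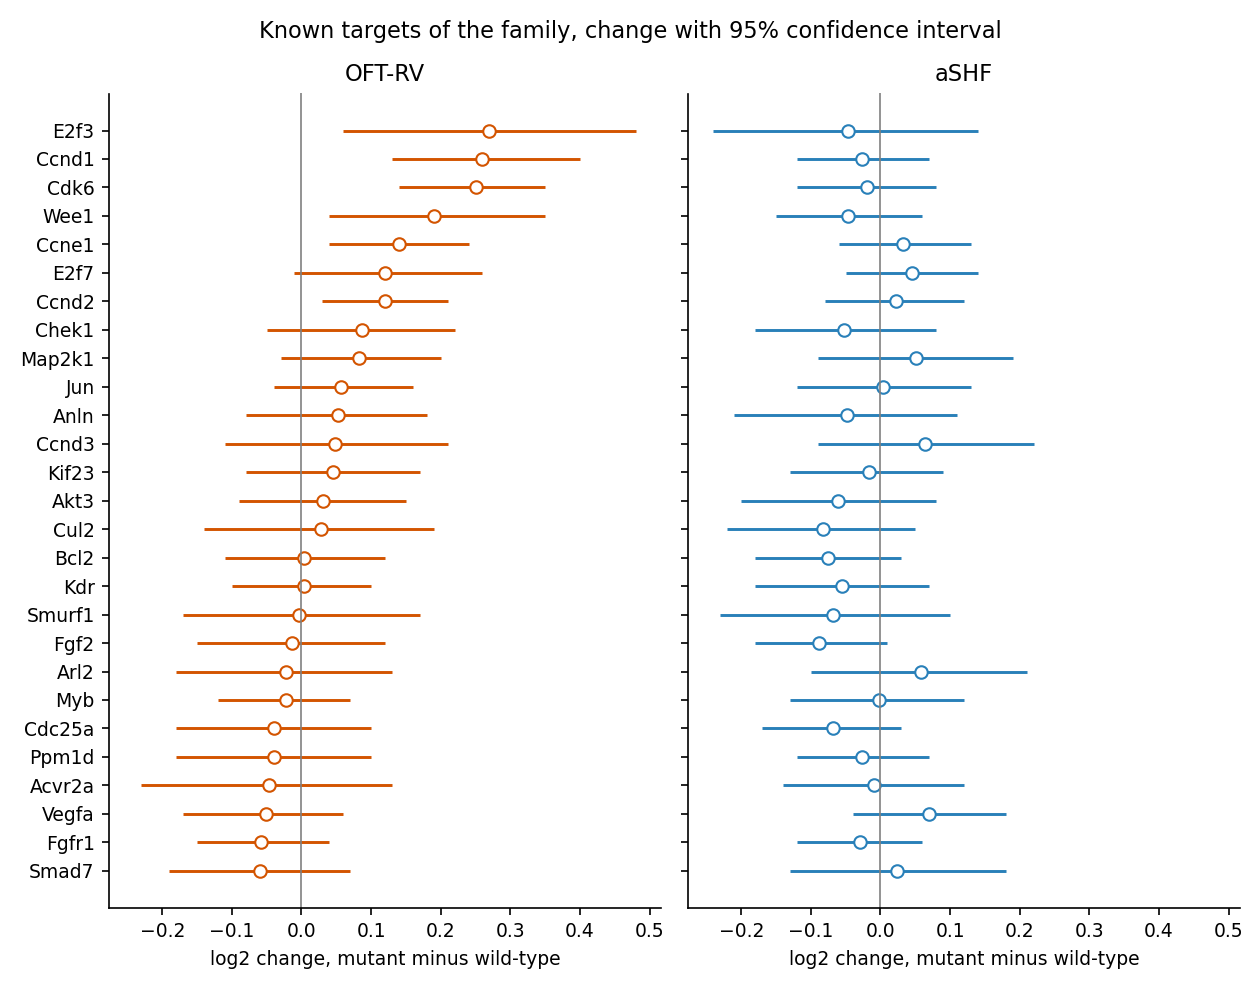
Log2 change (mutant minus wild-type) with 95% confidence interval of 27 known targets of the family on the mRNA arrays, OFT-RV left and aSHF right, ordered by the change in OFT-RV (4 arrays per genotype, open points for changes that did not pass). The largest OFT-RV changes, 0.25 to 0.27, are those of E2f3, Ccnd1 and Cdk6, and all aSHF changes lie between -0.09 and 0.07.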

How the data were processed

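The authors deposited log2 expression values per probe set from Affymetrix mRNA and miRNA arrays, and the submitters' processing notes name RMA and oligo for them (their versions are not given here). The medians of arrays differed between tissues and array types, so levels were never compared across them. The authors' deposited tables of fold changes and p-values were used only to name probe sets, by matching their mean and change in both tissues within 1e-06. This named all 20889 listed genes, and 45 with a shared probe set and 2 second listings were left out. 30 columns of 4 tables whose names match no label were not used.

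limma 3.58.1 in R 4.3.3 compared mutant with wild-type arrays in each tissue, with Benjamini-Hochberg adjustment over 20842 genes or 1908 mature miRNAs, and a fit of all 4 groups gave the differences between tissues. The code was tested on simulated data. Of the targets, the text names those that passed and the 4 with the smallest p in each tissue and in the difference. The members and lists were chosen with earlier results of these data known. Of 1738 mature miRNAs of the annotation, 1654 were matched by location, which named miR-497a. Samples were grouped by their labels, and p-values measure the spread between pools, whose independence beyond the labels is not given. Alternatives were dim probe sets left out, adjustment over all probe sets, array weights, a trended robust prior, 1 fit of 4 groups, the replicate number as a block, other centring and each replicate left out.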

Additional observations from a re-analysis of the deposited data

Results flagged for a closer look

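The changes of 5 miRNA genes differed between the tissues when the difference itself was tested, taking a log2 unit to mean the same in both. The change in OFT-RV exceeded that in aSHF by 2.5 on the log2 scale for Mir322, by 1.91 for Mir503, by 1.68 for Mir351, by 1.02 for Mir16-1 and by 0.99 for Mir15a. The difference of Mir15a did not pass by limma when adjusted over all probe sets (adjusted p = 0.117). It also did not pass in 4 of 16 fits with 1 replicate left out.

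In 10 of 174 groups of 4 arrays (5.75%), 1 array stood apart from the other 3 by more than Dixon's 95% critical value, which chance gives in about 1 of 20 groups. Among family genes these were mutant replicate 3 for Mir16-2 (5.56) and mutant replicate 1 for Mir195a (6.93) in aSHF, and wild-type replicate 4 for Mir16-1 in OFT-RV (5.13). In the X-chromosome cluster they were wild-type replicate 2 for Mir503 (7.36) and Mir450-1 (4.71) and wild-type replicate 3 for Mir450b (4.47), all in aSHF. For Bcl2 they were mutant replicate 2 in OFT-RV (8.88) and wild-type replicate 4 in aSHF (9.99). Among miRNAs with the same seed, at background, they were aSHF wild-type replicate 1 for miR-6342 (0.58) and miR-6353 (0.59).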

How the results depend on the processing

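No change on the family, its cluster or its targets that had passed turned its direction under an alternative, whereas some that had not passed did when 1 replicate was left out, such as miR-16-5p (-0.45 to 0.0286) and miR-15a-5p (-0.1 to 0.13) in OFT-RV. Mir322 stayed past the threshold in every alternative that tested it, between 2.97 and 3.23 in OFT-RV, 0.53 and 0.62 in aSHF and 2.4 and 2.65 for the difference with 1 replicate left out. With dim probe sets left out, Mir322 and Mir16-1 were not tested in aSHF, so 0 of the family genes passed there and 1 (Mir15a) passed in the difference. In 1 fit of 4 groups, 1 family gene passed in aSHF. With 1 replicate left out, 2 to 2 family genes passed in aSHF and 2 to 3 in the difference. Adjusted over all probe sets, the change of Dgcr8 in OFT-RV (-0.41) had an adjusted p of 0.057, the difference of Mir15a 0.117 and the change of Mir503 in aSHF 0.0501. The 37 genes called in aSHF became 18 over all probe sets and 60 with array weights, and 19 to 43 with 1 replicate left out, where wild-type replicates 3 (21 genes) and 4 (19 genes) gave the lowest counts. The 44 genes that differed between tissues became 26 without dim probe sets and 36 to 44 with 1 replicate left out, and the 93 in OFT-RV 77 to 88. The 7 mature miRNAs called in OFT-RV became 4 over all probe sets, 38 in 1 fit of 4 groups, 2 with a trended prior and 1 to 9 with 1 replicate left out, the 0 in aSHF became 0 to 2 and the 3 of the difference 1 with a trended prior and 1 to 8. The cause of these shifts was not tested. Whether the replicate numbers pair the arrays was left unsettled, as the array sets differed. The correlation of same-numbered arrays passed 0.1 in 2 of 4 pairs on mRNA arrays of either tissue. It did so in 1 of 3 pairs on OFT-RV miRNA arrays and 3 of 4 on aSHF miRNA arrays. On aSHF miRNA arrays 4 of 4 mutant arrays were closest to their own number, against 1 in each other set. On aSHF mRNA arrays the correlation ran from -0.016 to 0.646. The main fits did not use the number. As a block it took the aSHF genes at an unadjusted p under 0.05 from 555 to 1721. With the number as a replicate block the rise of Mir322 was 3.08 in OFT-RV and 0.58 in aSHF, with a difference of 2.5, and no call of the family changed. Most mature members lay at or near background, which limits what the miRNA arrays can show for them.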
